A study of Saccharomyces cerevisiae with 4 samples.

Results

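Glycogen is the branched glucose store of budding yeast (Saccharomyces cerevisiae), and 10 genes for its synthesis, breakdown and control were followed here by name among the 7126 genes of the deposited table: GSY1, GSY2, GLG1, GLG2, GLC3, GPH1, GDB1, GAC1, PIG1 and PIG2. Poly(A) RNA of 2 wild-type libraries (WT) was compared with that of 2 libraries labelled T4V, in which valine takes the place of threonine at position 4 of the repeats that form the C-terminal domain of RNA polymerase II. The title of the series ties this residue to chromatin remodelling with the histone variant Htz1, and the labels name no question about glycogen. The sources used here state no strain background, mating type, medium, growth phase or agent common to both genotypes. Nothing says that libraries of a genotype came from separate cultures or clones, so p-values measure the spread between these libraries only, which may be technical.

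Glycogen chains start on glycogenin, a self-glucosylating primer protein, and glycogen synthase lengthens them from UDP-glucose. The branching enzyme moves short stretches of chain to side positions. Glycogen phosphorylase releases glucose 1-phosphate from chain ends, and the debranching enzyme clears the branch points at which phosphorylase stops. Synthase is held inactive by phosphorylation, and the phosphatase Glc7 (protein phosphatase 1), brought to it by targeting subunits such as Gac1, removes the phosphates. Yeast stores glycogen as nutrients run low and uses it later.

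Many glycogen genes are known for stress response elements, the letters CCCCT or AGGGG on either strand, which the transcription factors Msn2 and Msn4 bind. These letters were searched for upstream of the 10 genes because several members moved together. The stretches below are from the RefSeq R64 assembly, read 5′ to 3′ on the strand of the gene, with the match in capitals and 20 bases on either side. One stretch is shown for each gene that holds a match within 500 bases before its start codon.
GPH1 (chrXVI:860929-861004, plus strand): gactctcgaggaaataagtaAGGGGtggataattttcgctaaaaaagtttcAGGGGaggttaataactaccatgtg
GDB1 (chrXVI:901832-901876, plus strand): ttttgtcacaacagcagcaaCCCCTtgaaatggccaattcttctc
GSY2 (chrXII:660500-660544, plus strand): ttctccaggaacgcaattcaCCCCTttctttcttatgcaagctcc
GSY1 (chrVI:176699-176743, minus strand): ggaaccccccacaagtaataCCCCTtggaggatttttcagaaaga
GLC3 (chrV:132887-132931, plus strand): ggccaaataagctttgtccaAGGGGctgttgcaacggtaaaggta
GLG2 (chrX:156210-156254, minus strand): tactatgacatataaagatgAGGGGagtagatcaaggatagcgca
PIG2 (chrIX:270795-270851, plus strand): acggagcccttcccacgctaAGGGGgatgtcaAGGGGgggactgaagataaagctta

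Within 250 bases before to 50 bases after the start codon, 4 of the 10 genes held the element (GSY2, GLG2, GLC3 and GDB1), against 21.6% of the 6026 such windows in the genome. With 500 bases before the start codon, a window added after the first had been read, 7 of 10 held it, against 36.3% of windows. GAC1, GLG1 and PIG1 had no match in either window, which says only that these letters are not there. The letters CACGTG, the core of the site of the phosphate regulator Pho4, were in 0 of the 10 windows of either length, against 2.90% and 6.39% of all windows. These matches are descriptions of sequence and not of binding.

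**Figure D1:**
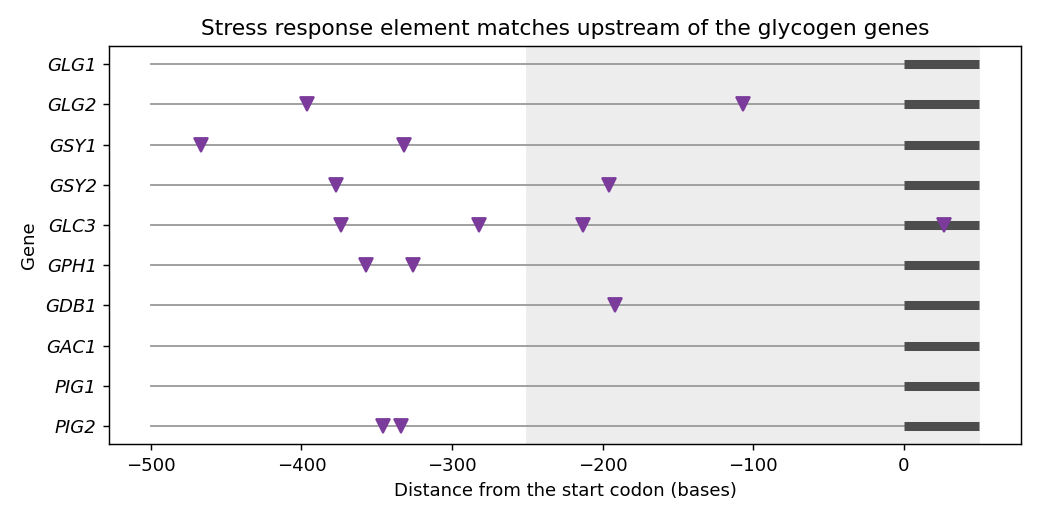
Positions of exact matches to the stress response element (triangles) from 500 bases before to 50 bases after the start codon of each glycogen gene, with the coding part as a thick bar and the shorter window shaded. GLC3 holds 3 matches upstream and 1 inside the coding part, and GLG1, GAC1 and PIG1 hold none.

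The library sizes were 3355000 to 4261000 reads, as recovered from the steps of the RPKM values (reads scaled by gene length and library size). These are the totals by which RPKM was scaled, which need not hold all reads sequenced. A value above 0 was listed for 6067 to 6178 genes per library. All 10 glycogen genes passed the filter on low values, with 50 to 1592 reads per gene and library and 6.64 to 193 RPKM, well above the 0.704 to 0.894 RPKM that 3 reads would give a gene of 1 kb. Genes were tested with limma on log2(RPKM + 1), T4V minus WT, and called at an adjusted p under 0.05 over 5935 genes. In bulk RNA a change in the share of cells that use a gene and a change in RNA per cell cannot be told apart.

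Of the 10 glycogen genes 4 rose in the libraries labelled T4V: GPH1 and GDB1, which encode both enzymes of breakdown, GAC1, which encodes a phosphatase targeting subunit, and GLG1, which encodes a primer. None was called lower by limma, and 1 gene, GLG2, was lower at an unadjusted p under 0.05, as were 11.8% of all genes tested. Across all genes tested 11.7% were called higher and 6.25% lower, or 692 and 371 genes, a split that median-of-ratios scaling moved to 511 and 503 genes and quantile normalization to 453 and 448 genes. The other 6 genes did not pass, although 3 of them (GSY1 and GSY2 higher, GLG2 lower) had an unadjusted limma p under 0.05. At that threshold 6 of the 10 members were higher, against 21.9% of all genes tested. The median log2 fold change of the 10 genes was 0.40, and that of all genes tested was 0.07. Both T4V libraries lay above both WT libraries for 6 members and below them for 1, against 38.6% and 23.4% of all genes tested.

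Voom, a limma form that weights recovered reads by their precision, was added after the data had been seen and called 6 members higher and 1 lower, against 18.0% and 10.4% of 5575 genes. When either T4V library was left out with all 5935 genes kept, limma called 0 of the 10 members. At an unadjusted p under 0.05, the members counted 4 higher and 0 lower in the fit that lacked T4V library A, and 5 higher and 1 lower in that lacking T4V library B. Of all genes tested, 13.8% were higher and 8.48% lower at that threshold in the former fit, and 14.7% and 8.34% in the latter. Adjusted p of the 4 genes then ran from 0.073 to 0.209, and over all genes limma called 10 higher and 6 lower when T4V library A was left out, and 17 higher and 10 lower when T4V library B was. With the filter on low values applied to the 3 libraries left, log2 fold changes were read for GPH1, GDB1, GAC1, GLG1 and GLG2. In that order they were 1.11, 0.95, 1.31, 1.15 and -0.31 without T4V library A. Without T4V library B they were 1.07, 0.80, 0.97, 0.74 and -0.83.

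**Figure D2:**
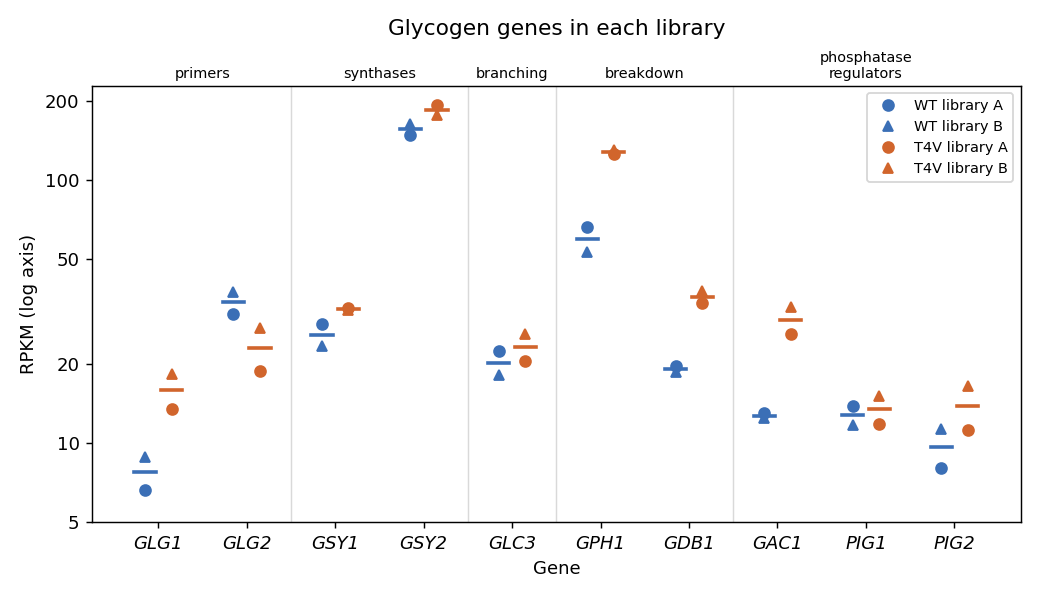
RPKM on a log axis of each glycogen gene in the WT libraries (blue) and T4V libraries (orange), with circles for library A, triangles for library B and a line at each mean of 2. The T4V points of GPH1, GDB1, GAC1 and GLG1 all lie above their WT points, while those of GLC3, PIG1 and PIG2 overlap.

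GPH1 (YPR160W), the glycogen phosphorylase gene, lies on chromosome XVI at 861306 to 864014 on the plus strand as a single exon. It had 66.3 and 53.3 RPKM in WT libraries A and B and 126 and 130 RPKM in T4V libraries A and B. The T4V libraries lay close together and well above both WT libraries. Its log2 fold change was 1.09 ± 0.11 (SE), with a 95% interval of 0.82 to 1.36 and a limma adjusted p of 0.00216. In reads, 1259 in WT and 2644 in T4V gave a ratio of 2.13 after correction for library size, with an exact 95% counting interval of 1.99 to 2.28. It was the second most abundant of the 10 genes in both genotypes, and its upstream stretch printed above holds a close pair of stress response elements.

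GDB1 (YPR184W), the debranching enzyme gene, lies on the same chromosome at 902044 to 906654, also on the plus strand. It had 19.6 and 18.6 RPKM in WT libraries A and B and 34.1 and 37.9 RPKM in T4V libraries A and B. Within each genotype the libraries differed far less than between genotypes. The log2 fold change was 0.88 ± 0.12 (SE), with an interval of 0.59 to 1.17 and a limma adjusted p of 0.0054. Its 681 reads in WT and 1272 in T4V gave a ratio of 1.89, with a counting interval of 1.72 to 2.08. In mean RPKM it stood the sixth of the 10 genes in WT and the third in T4V.

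The synthases did not pass the test. GSY2 (YLR258W), on chromosome XII at 660716 to 662833 on the plus strand, encodes the main glycogen synthase of starved cells. It was the most abundant of the 10 genes in each library, with 148 and 164 RPKM in WT libraries A and B and 193 and 176 RPKM in T4V libraries A and B. Both T4V libraries lay above both WT libraries by a small margin. The log2 fold change was 0.24 ± 0.09 (SE), with an interval of 0.04 to 0.45, and its limma adjusted p of 0.0978 missed the threshold, whereas voom gave 0.0111. The counting interval of its read ratio ran from 1.12 to 1.25.

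GSY1 (YFR015C), the second synthase gene, on chromosome VI at 174265 to 176391 on the minus strand, had 28.3 and 23.3 RPKM in WT libraries A and B and 32.6 and 32.1 RPKM in T4V libraries A and B. The groups did not overlap, but the gap between the WT libraries was wider than that between WT library A and either T4V library. Its log2 fold change of 0.32 ± 0.13 (SE), with an interval of 0.01 to 0.63, had a limma adjusted p of 0.138 and a voom adjusted p of 0.036. For both synthase genes the interval leaves out a rise of the size seen in GPH1.

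GSY1 and GSY2 arose by duplication and could share reads. Their coding sequences were identical at 73.2% of 2113 aligned positions, and the longest run they share, at coding position 58 of each, is 20 bases.
GSY1 (chrVI:176315-176334, minus strand) and GSY2 (chrXII:660773-660792, plus strand): agggttggtggtatttactc
No window of 25 bases in the coding sequence of any of the 10 genes occurs a second time in the R64 genome. The sources used here state no read length. GSY2 stood at 5.22 and 7.04 times GSY1 in WT libraries A and B and at 5.91 and 5.49 times in T4V libraries A and B. The T4V ratios lay between those of WT, so the balance of the synthase genes showed no separation between genotypes (log2 difference -0.08, exact permutation p = 1, 2-sided).

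Of the primer genes, GLG1 rose and GLG2 did not pass the test. GLG1 (YKR058W), on chromosome XI at 552770 to 554620 on the plus strand, was the least abundant member in WT. It had 6.64 and 8.87 RPKM in WT libraries A and B and 13.5 and 18.3 RPKM in T4V libraries A and B. The groups did not overlap, although the libraries of each genotype also differed. GLG1 rose by 0.95 ± 0.22 (SE) on the log2 scale, with an interval of 0.41 to 1.48 and a limma adjusted p of 0.0313. Its 110 reads in WT and 228 in T4V gave a ratio of 2.10, with a counting interval of 1.67 to 2.66. The limma call was lost after quantile normalization (adjusted p = 0.0579) and without the variance trend (0.079). It was also lost without WT library A or without T4V library B, in both forms of the filter. Without T4V library A it was lost with all genes kept. The log2 fold change of GLG1 was 0.76 without WT library A, 0.74 without T4V library B and 1.15 without T4V library A.

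GLG2 (YJL137C), the other glycogenin gene, on chromosome X at 154985 to 156127 on the minus strand, had 31.0 and 37.6 RPKM in WT libraries A and B and 18.8 and 27.3 RPKM in T4V libraries A and B. It was the only member with both T4V values under both WT values. Its log2 fold change was -0.57 ± 0.19 (SE), with an interval of -1.03 to -0.11. The limma adjusted p of 0.0913 missed the threshold, and voom called it lower at 0.0115. Over its alternatives the log2 fold change ran from -0.83 without T4V library B to -0.31 without T4V library A.

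Within a library, the ratio of the primer genes does not depend on scaling. GLG2 stood at 4.66 and 4.24 times GLG1 in WT libraries A and B and at 1.39 and 1.50 times in T4V libraries A and B. The libraries of a genotype agreed closely, and the genotypes did not overlap. On the log2(RPKM + 1) scale the ratio was 2.02 ± 0.07 in WT and 0.50 ± 0.08 in T4V (SD, n = 2 each), a difference of -1.52. The exact permutation p was 0.333, the smallest that 2 against 2 libraries allow. The coding sequences were identical at 68.3% of aligned positions with a longest shared run of 14 bases.

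**Figure D3:**
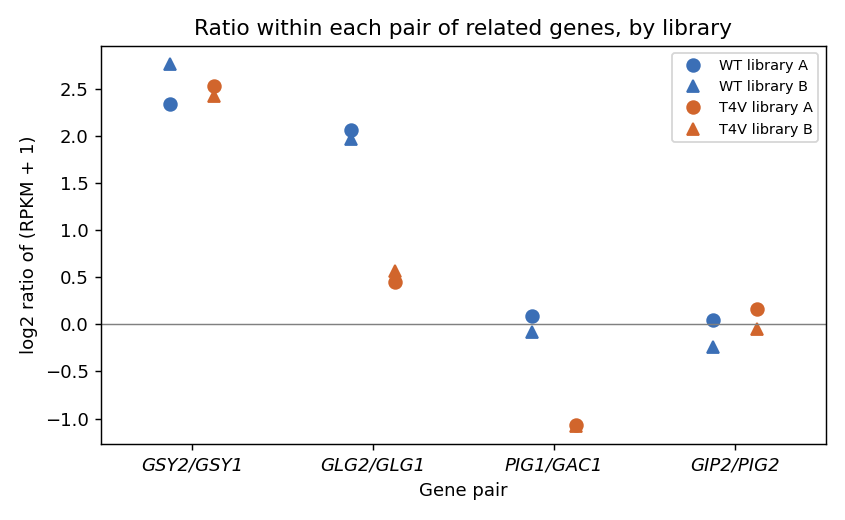
Log2 ratio of RPKM + 1 within each pair of related genes, in WT libraries (blue) and T4V libraries (orange), with circles for library A and triangles for library B. GLG2/GLG1 had means of 2.02 in WT and 0.50 in T4V, and PIG1/GAC1 means of 0.00 and -1.08, with no overlap, while GSY2/GSY1 and GIP2/PIG2 overlap.

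GLC3 (YEL011W), the branching enzyme gene on chromosome V at 133120 to 135234 on the plus strand, had 22.3 and 18.1 RPKM in WT libraries A and B and 20.6 and 26.0 RPKM in T4V libraries A and B. The groups overlapped. The log2 fold change was 0.19 ± 0.17 (SE), with an interval of -0.21 to 0.59 and a limma adjusted p of 0.471. GLC3 carried more matches to the stress response element than any other member.

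Of the 3 phosphatase regulators among the members, limma called GAC1. GAC1 (YOR178C), on chromosome XV at 667860 to 670241 on the minus strand, encodes a subunit that brings Glc7 to glycogen synthase. It had 13.0 and 12.4 RPKM in WT libraries A and B and 25.9 and 33.0 RPKM in T4V libraries A and B. Both T4V libraries lay far above both WT libraries and differed from each other more than the WT libraries did. GAC1 rose by 1.14 ± 0.16 (SE) on the log2 scale, with an interval of 0.77 to 1.52 (limma adjusted p = 0.00554). Its 234 reads in WT and 542 in T4V gave a ratio of 2.35, with a counting interval of 2.01 to 2.75.

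PIG1 (YLR273C), a relative of GAC1 on chromosome XII at 689083 to 691029 on the minus strand, had 13.9 and 11.7 RPKM in WT libraries A and B and 11.8 and 15.1 RPKM in T4V libraries A and B. The groups overlapped almost fully. On the log2 scale PIG1 differed by 0.06 ± 0.19 (SE), with an interval of -0.39 to 0.51 and a limma adjusted p of 0.853. PIG1 stood at 1.07 and 0.940 times GAC1 in WT libraries A and B and at 0.455 and 0.457 times in T4V libraries A and B. The pair was about even in WT, and GAC1 stood above PIG1 by nearly the same ratio in both T4V libraries. The log2 ratio differed by -1.08, again with an exact permutation p of 0.333, the smallest possible.

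PIG2 (YIL045W), another Glc7-binding subunit gene on chromosome IX at 271161 to 272777 on the plus strand, had 8.06 and 11.3 RPKM in WT libraries A and B and 11.2 and 16.5 RPKM in T4V libraries A and B. WT library B and T4V library A had nearly the same value. On the log2 scale the difference was 0.47 ± 0.25 (SE), with an interval of -0.12 to 1.06 and a limma adjusted p of 0.236. GIP2 (YER054C), its relative and also a Glc7 subunit gene, had 8.36 and 9.47 RPKM in WT libraries A and B and 12.7 and 16.0 RPKM in T4V libraries A and B. For GIP2 the log2 fold change of 0.62 ± 0.19 (SE) missed the threshold in limma (adjusted p = 0.0673) and passed in voom (0.00877). The GIP2 to PIG2 ratio lay between 0.835 and 1.13 in all 4 libraries.

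**Figure D4:**
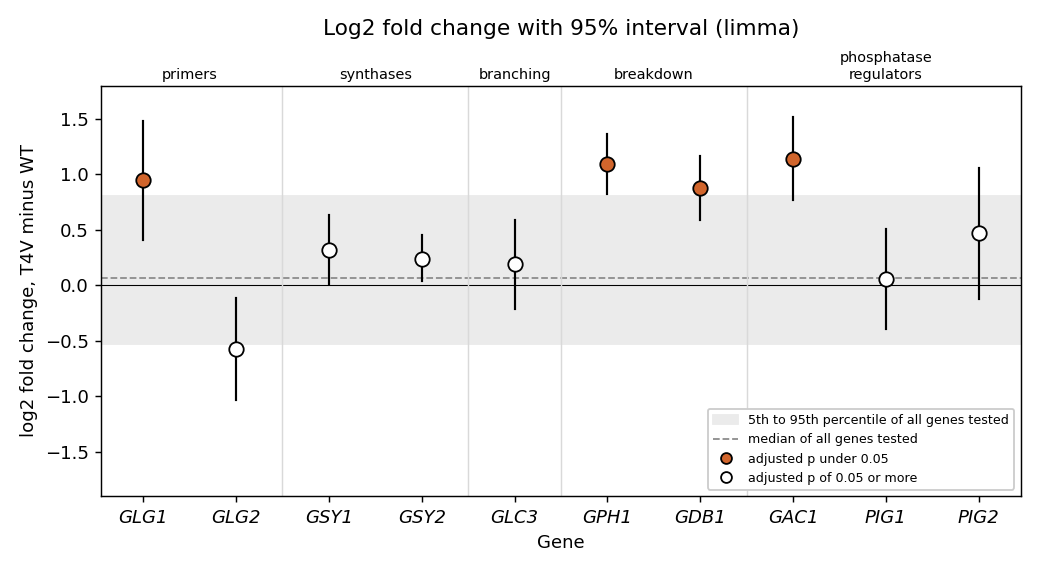
Log2 fold change (T4V minus WT) of each glycogen gene with its 95% interval from limma. Filled points passed at an adjusted p under 0.05, the dashed line is the median of all genes tested (0.07), and the grey band spans their 5th to 95th percentile (-0.53 to 0.81), above which the 4 filled points lie.

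Together the 10 genes took 3292 of 4045985 coding reads in WT library A and 2905 of 3637617 in WT library B. They took 3922 of 3339123 in T4V library A and 5213 of 4239291 in T4V library B. This was 0.0814%, 0.0799%, 0.1175% and 0.123% of coding reads in the same order. The share in T4V was 1.49 times that in WT, with an exact permutation p of 0.333, the smallest possible with 2 against 2. Because GSY2 and GPH1 hold most of these reads, the sum follows them more than the low regulators. GPH1 stood at 0.449 and 0.326 times GSY2 in WT libraries A and B and at 0.652 and 0.737 times in T4V libraries A and B, a ratio chosen after the values had been seen.

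In WT the order of mean RPKM was GSY2, GPH1, GLG2, GSY1, GLC3, GDB1, PIG1, GAC1, PIG2 and GLG1. In T4V it was GSY2, GPH1, GDB1, GSY1, GAC1, GLC3, GLG2, GLG1, PIG2 and PIG1. GDB1 and GAC1 moved up by 3 places each, and GLG2 went from the third place to the seventh. GLC3 and GDB1 overlapped in WT, as did PIG1 and GAC1, and PIG2 and GLG1, so these neighbours in the order did not differ beyond their spread. In T4V, GAC1 overlapped its neighbours GSY1 and GLC3, GLC3 overlapped GLG2, and PIG2 overlapped GLG1 and PIG1.

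The genes that feed glycogen synthesis were mixed. Of 7 genes for hexose phosphates and UDP-glucose, 2 rose and 1 fell by limma. Voom called 4 of them higher and 1 lower, against 18.0% and 10.4% of 5575 genes. The hexokinase gene HXK1 rose by 0.82 ± 0.13 (SE, limma adjusted p = 0.0099), from 97.7 to 171 mean RPKM, and the glucokinase gene GLK1 rose by 0.41 ± 0.08 (0.0155). PGM1, which encodes the minor phosphoglucomutase, fell from 215 and 208 RPKM in WT libraries A and B to 151 and 158 RPKM in T4V libraries A and B, at -0.45 ± 0.07 on the log2 scale (SE, limma adjusted p = 0.00762). PGM2 encodes the major form but had less RNA than PGM1 in each library. It had 34.5 and 33.0 RPKM in WT libraries A and B and 38.7 and 47.9 RPKM in T4V libraries A and B. The PGM2 log2 fold change was 0.34 (limma adjusted p = 0.116, voom adjusted p = 0.0194). UGP1, which encodes the enzyme that makes UDP-glucose, had 569 and 619 RPKM in WT libraries A and B and 701 and 652 RPKM in T4V libraries A and B. The UGP1 log2 fold change was 0.19 (limma adjusted p = 0.118, voom adjusted p = 0.0229).

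Of 12 other genes of the Glc7 phosphatase, 1 rose, SDS22, a nuclear regulator, by 0.36 (limma adjusted p = 0.0488). That call was lost under most alternatives, including a pseudocount of 0.1 (0.0522) and no filter on low values (0.0584). At an unadjusted limma p under 0.05, 3 of the 12 were higher and 0 lower, against 21.9% and 11.8% of all genes tested. Voom called 3 higher and 0 lower, against 18.0% and 10.4% of 5575 genes. GLC7 itself had 109 and 131 RPKM in WT libraries A and B and 146 and 131 RPKM in T4V libraries A and B, with overlapping groups and a limma adjusted p of 0.239. None of the 5 genes for the kinase Pho85 and its glycogen cyclins was called by limma. In that list 0 genes were called higher and 1 lower by voom, namely PHO85 at -0.34. That kinase phosphorylates glycogen synthase, and PHO85 stood at -0.35 by limma, with adjusted p = 0.0678 and an unadjusted p of 0.0146, the only one under 0.05 in the list; after median-of-ratios scaling it was called lower at adjusted p = 0.0416.

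Of 9 genes of the Snf1 kinase, which favours glycogen storage, 1 rose and 1 fell. TOS3, which encodes an activating kinase, had 12.9 and 11.4 RPKM in WT libraries A and B and 25.9 and 24.1 RPKM in T4V libraries A and B, a rise of 0.99 ± 0.14 (SE, limma adjusted p = 0.00638). SIP1, a subunit gene, fell by 0.42 (limma adjusted p = 0.0479), and the call was lost without the filter on low values and when any 1 library was left out. GAL83, another subunit gene, stood at -0.29 (limma adjusted p = 0.0507) and was called lower after median-of-ratios scaling (0.0276), after quantile normalization (0.0334) and by voom (0.0224). Of 12 genes of Ras and protein kinase A, which oppose storage, RAS1 fell by 0.51 (limma adjusted p = 0.00925) and the phosphodiesterase gene PDE1, whose product degrades cyclic AMP, rose by 0.43 (0.0163), a call lost without WT library A. Not called by limma but at an unadjusted p under 0.05 were CDC25 (0.33), BCY1 (0.26) and TPK2 (0.25), all higher, and TPK3 (-0.24), lower. Voom called CDC25 (adjusted p = 0.0014) and BCY1 (0.0118) higher. Whether these changes add up to a direction for the Ras pathway was not tested. The list medians were -0.03 for Snf1 and 0.11 for Ras and protein kinase A.

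Of 6 genes of stress transcription 2 rose, the kinase gene RIM15 by 0.55 (limma adjusted p = 0.0345) and MSN4 by 0.36 (0.0436), while MSN2 stood at -0.16 (0.167). MSN4 was not called under median-of-ratios scaling, without the filter on low values or without any 1 library. Neither RIM15 nor MSN4 was called after quantile normalization, without the variance trend, without WT library A or without either T4V library. Of 7 genes of trehalose, the other glucose store of yeast, 5 rose, TPS1, TPS2, TSL1, NTH1 and NTH2, by 0.34 to 0.50, with a list median of 0.49. After median-of-ratios scaling 2 of the 7 were called, 1 after quantile normalization and 1 without WT library B. Without the variance trend limma called 0 of the 7, of which 6 were higher at an unadjusted p under 0.05. Of the PAS kinase genes PSK1 and PSK2 and SGA1, a glucoamylase gene of sporulation, none was called by limma with the variance trend, while all 3 were higher at an unadjusted p under 0.05 and were called higher by voom. SGA1 had 3.43 and 2.99 RPKM in WT libraries A and B and 6.32 and 6.12 RPKM in T4V libraries A and B, with a limma adjusted p of 0.0939, or 0.0322 without the variance trend.

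Over the 61 genes of these 8 lists, 12 rose and 3 fell by limma, against 11.7% and 6.25% of all genes tested. Voom called 24 higher and 5 lower, against 18.0% and 10.4% of 5575 genes. At an unadjusted limma p under 0.05, 24 were higher and 6 lower, against 21.9% and 11.8% of all genes tested. The split of calls was 7 and 6 after median-of-ratios scaling, which called 511 genes higher and 503 lower among all 5936 tested. It was 5 and 5 after quantile normalization, which called 453 higher and 448 lower among all 5935 tested. With all genes kept, limma called 0 of 61 without T4V library A (16 higher and 3 lower unadjusted) and 0 without T4V library B (9 and 6). With the filter applied to the 3 libraries left, 5 were higher and 2 lower in each case. Without WT library A 7 rose and 2 fell. Without the variance trend limma called 3 higher, TOS3 and, not called with it, XBP1 and SGA1. It then called 0 lower, with 6 lower unadjusted.

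**Figure D5:**
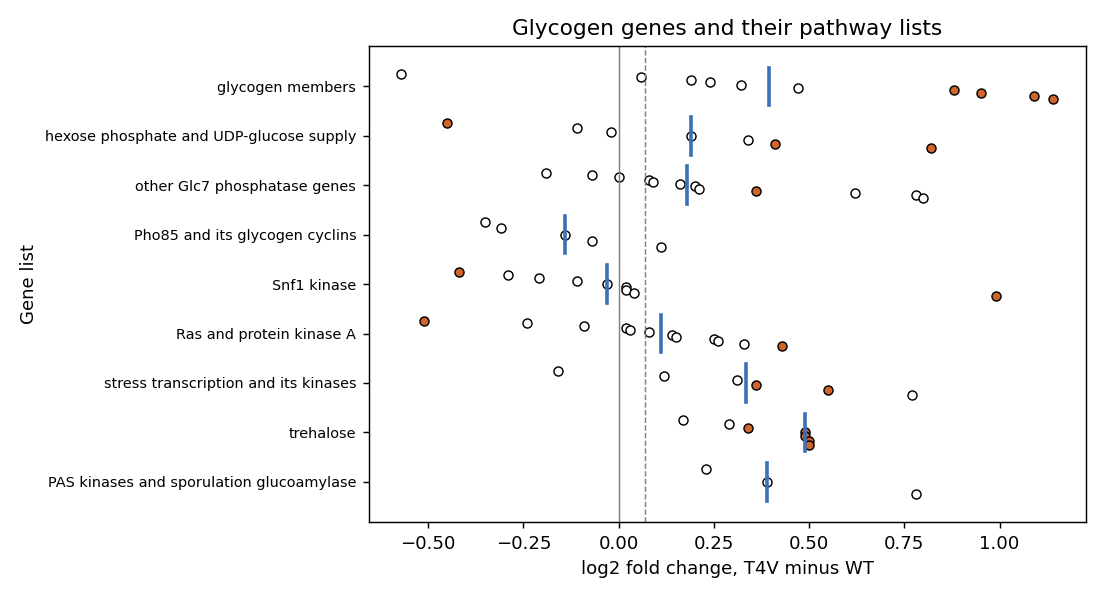
Log2 fold change (T4V minus WT) of each gene in the glycogen group and in the 8 pathway lists, with filled points for genes called by limma, a blue bar at each list's median, a solid line at 0 and a dashed line at the median of all genes tested. The glycogen genes spread from -0.57 to 1.14, and the trehalose genes lie between 0.17 and 0.50.

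None of the 20 coding genes that flank the members overlapped one in the annotation. Of 18 flanking genes tested, 4 were called higher and 4 lower, against 11.7% and 6.25% of all genes tested. GPH1 lies next to SGV1, which encodes a kinase of the polymerase II C-terminal domain and stood at -0.80 (limma adjusted p = 0.00317). GDB1 lies between DPM1 at -0.85 (0.00288) and ATG13 at 0.43 (0.0135), and GAC1 lies downstream of SYC1 at -0.92 (0.00698). CMK1 and YFR016C beside GSY1 stood at 0.50 (0.045) and -0.62 (0.00822), YLR257W beside GSY2 at 0.45 (0.0146) and UBC8 beside GLC3 at 0.47 (0.0156). GLG1 and GLG2 each lie upstream of a gene for the translation factor eIF4A, TIF1 and TIF2, which stood at -0.07 and -0.15 and were not called by limma. These are near-identical copies, so their split of reads is uncertain.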

How the data were processed

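The authors deposited 1 table of RPKM values for 7126 genes, with 1 column per library. Bowtie2 and the sacCer3 assembly are named in the submitters' processing notes, which as used here name no counting program, annotation or strand setting. Column names gave the genotype and a letter, A or B, by which libraries are called. No label ties the letters to replicate numbers or to a shared culture, batch or day. Per the labels' protocols, poly(A) RNA was ligated to adapters so that strand was kept, and amplified by PCR without molecular identifiers, so counting intervals cover counting error only.

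Reads per gene were recovered from RPKM, RefSeq R64 coding length (6013 genes) and library size. Among genes under 15 reads, 99.3% to 99.5% gave a read number within 0.1 of an integer. Genes with at least 1 RPKM in at least 2 libraries were tested with limma 3.58.1 in R 4.3.3, 2-sided, on log2(RPKM + 1) with trended moderated variances and Benjamini-Hochberg adjustment, after a test on simulated data. Fold changes on this scale understate those of low genes. Exact permutation tests were 2-sided. Python 3.11.15 and Biopython 1.88 were used. Windows were read from the R64 genome, whose annotation holds no UTRs.

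All 10 members were named, with, per list, up to 4 called genes plus GLC7, GIP2, SGA1, UGP1 and PGM2, and called neighbours. Genes named beyond this (MSN2, PSK1, PSK2, PHO85, GAL83, CDC25, BCY1, TPK2, TPK3, XBP1, TPS2, TIF1 and TIF2) were chosen after their values were seen. The members and lists were chosen with earlier results of these data known.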

Additional observations from a re-analysis of the deposited data

How the results depend on the processing

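The column names carry letters that no label ties to a pairing, and the A minus B differences of WT and T4V had a correlation of -0.015 across 5935 genes. With the letter as a replicate block, added after the data were seen and leaving 1 residual degree of freedom, 1 member (GLG2, adjusted p = 0.0162) was called lower, and 744 genes were higher and 393 lower. edgeR, DESeq2 and voom with TMM, planned for recovered reads, were not run, and voom with library totals was added in their place. GPH1, GDB1 and GAC1 were called under each alternative except without T4V library A or B with all genes kept. Leaving out a library in that form, members called higher ran from 0 to 4, all genes called higher from 10 to 501 and lower from 6 to 245, and PIG1 from -0.10 to 0.23. With the filter applied to the 3 libraries left, a form added after the data were seen, 404 genes were higher without T4V library A and 416 without T4V library B, where 1 member (GLG2) was lower, and PIG1 stood at -0.055 without WT library B and -0.10 without T4V library B. After quantile normalization 453 genes were higher and PIG1 stood at -0.042. Without the variance trend 265 were higher and 134 lower. Voom called 579 genes and 1 member lower. The log2 difference of GLG2/GLG1 was -1.61 with a pseudocount of 0.1 and -0.97 with 10, and that of PIG1/GAC1 -0.75 with 10. The members' share of reads was higher in T4V by 0.0454 percentage points without the 20 most abundant genes, and by 0.0396 with them. PIG2 and GLG1 had the widest 95% intervals of the members. The cause was not tested for any of these shifts.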
